A study of Mus musculus with 94 samples.

Results

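Tbx2, Tbx3, Tbx4 and Tbx5 are the 4 genes of the Tbx2 subfamily of T-box transcription factors, and they were followed through mouse embryonic stem cells from which the cohesin release factor WAPL or the cohesin subunit RAD21 had been removed. They were chosen by gene family, with results of these comparisons already known, among them the higher Tbx2 level after WAPL loss on days 4 to 7. The rule took the rows with these 4 symbols, so they are 4 of 24767 genes listed in at least 1 of 4 count tables. All 4 genes are listed in each table. Of the 94 samples of the series, 18 enter here, namely 14 RNA-seq libraries and 4 libraries of precision run-on sequencing (PRO-seq), which reads nascent RNA at engaged RNA polymerase.

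All cells were ES cells of a CAST/Ei x 129/Sv/Jae cross with the Tsix-stop allele, and all carried the FKBP(degron) tag on 1 of the 2 proteins, the DMSO controls included. dTAG-13, at 500 nM, is the small molecule that sends the tagged protein for degradation, and the controls received an equal volume of DMSO. WAPL-FKBP(degron) cells were treated for 3 days in 1 of 2 windows of embryoid body differentiation. In the window of days 4 to 7, 3 dTAG-13 and 3 DMSO RNA libraries were made, of which replicates 1 and 2 are clone H7 and replicate 3 is clone H2. In the window of days 7 to 10, 2 dTAG-13 and 2 DMSO RNA libraries were made, all of clone H7. The RAD21-FKBP(degron) cells, clones C4 and G9, had 8 h of treatment before harvest on day 10 for RNA-seq or on day 7 for PRO-seq, with 1 library per clone and treatment. The stem cells had been kept on γ-irradiated mouse embryonic fibroblast feeders before differentiation without LIF. Each tagged protein is represented by at most 2 clones, and the labels do not state that replicates were grown as separate cultures, so the p-values speak only for the spread among these libraries, which may be technical.

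T-box factors bind DNA through a shared domain and act as repressors or activators. In mammals the subfamily lies in pairs of neighbouring genes, Tbx2 with Tbx4 and Tbx3 with Tbx5, which are thought to descend from a single pair by duplication. Tbx2 and Tbx3 are known mainly as repressors, in the heart's non-chamber muscle, the limb and the breast, while Tbx4 and Tbx5 are known as activators in hindlimb and forelimb, and Tbx5 also in heart chambers. Cohesin extrudes DNA loops that can bring distant enhancers to promoters, RAD21 is part of its ring, and WAPL releases it from DNA.

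The promoter of Tbx4 is shown because Tbx4 was the 1 member higher without overlap in the WAPL days 4 to 7 libraries and called higher in the PRO-seq libraries as well. It was the only 1 of the 4 members with an entry in the RefSeq promoter table of GRCm38.p6, at chr11:85896515-85896814 on the plus strand, 250 bases before to 50 bases after the gene's start. Capitals mark the letters TTATAA, where the searched motif TATAA occurs on both strands in overlapping positions.
Tbx4: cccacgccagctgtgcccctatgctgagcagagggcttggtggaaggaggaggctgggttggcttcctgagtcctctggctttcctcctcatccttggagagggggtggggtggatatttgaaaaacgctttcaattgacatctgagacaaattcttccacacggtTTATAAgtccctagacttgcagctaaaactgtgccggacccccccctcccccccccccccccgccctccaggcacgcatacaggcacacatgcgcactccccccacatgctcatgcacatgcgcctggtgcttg
On the plus strand TATAA began 83 bases before the start. TATAA was present on either strand in 24.9% of 32851 promoters of the same length. The window did not hold GGTGTG, the core of a T-box binding site, on either strand, as 19% of promoters did. Of its bases 59% were G or C, with 8 CpG. These matches describe letters only.

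Library totals, were 8413210 to 35388500 counts for WAPL days 4 to 7, 12076600 to 26956700 for WAPL days 7 to 10, 13802100 to 33808900 for RAD21 RNA and 14269500 to 34336000 for PRO-seq. Levels are CPM, the usual count per unit of library size, computed within each table from the library total and its TMM factor. A count of 3, taken as the limit of detection, equals 0.0834 to 0.374 CPM over the 18 libraries and covers counting error only. dTAG-13 acts on the protein, so the mRNA of the tagged gene checks no label. Wapl differed by a log2 fold change of 0.02 on days 4 to 7 and -0.01 on days 7 to 10, and Rad21 by 0.14 in RNA and 0.16 in PRO-seq. Neither Rad21 value passed the test (edgeR adjusted p = 0.118 and 0.152).

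WAPL loss on days 4 to 7 came with more Tbx2, Tbx4 and Tbx3 RNA in every library. Tbx2, a repressor of cell cycle inhibitors and of the chamber muscle programme, had the greatest ratio of the 4. It stood at 5.87, 6.55 and 7.78 CPM in the dTAG-13 libraries, against 0.917, 0.895 and 0.872 CPM in the DMSO libraries, in replicates 1, 2 and 3. These values rest on 76, 188 and 101 counts with dTAG-13, against 33, 19 and 7 counts with DMSO. All dTAG-13 libraries lay above all DMSO libraries, and the 3 DMSO libraries were nearly alike. The log2 fold change was 2.85 (SE 0.21), which is 7.22-fold. The fold was 6.40 and 7.32 in the H7 couples of libraries and 8.92 in the H2 couple. In bulk samples such as these, more cells of a type and more RNA per cell cannot be told apart.

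Tbx4, the neighbour of Tbx2 and an activator of hindlimb and lung outgrowth, differed in the same direction. Its level was 16.3, 22.9 and 20.3 CPM with dTAG-13, against 5.64, 6.03 and 5.73 CPM with DMSO. The groups did not overlap, and the log2 fold change was 1.78 (SE 0.17), or 3.43-fold. The smallest fold of a couple was 2.89, in replicate 1.

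Tbx3, which in embryonic stem cells is also known as a pluripotency-associated factor, had a smaller ratio that varied with the clone. It stood at 16.8, 18.5 and 15.8 CPM with dTAG-13, against 12.5, 9.80 and 4.86 CPM with DMSO. The groups did not overlap, but the DMSO libraries spread far more widely, and the lowest of them was clone H2. The log2 fold change was 0.93 (SE 0.22), with folds of 1.35 and 1.89 in the H7 couples and 3.25 in the H2 couple. In clone H7 alone the log2 fold change was 0.66. Its call was lost in clone H7 alone, without the clone term, and without DMSO replicate 2 (0.89), DMSO replicate 3 (0.66) or dTAG-13 replicate 3 (0.66).

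Tbx5, the activator of forelimb and heart chamber genes, was at the edge of detection and was not tested in this window. It had 0, 7 and 2 counts with dTAG-13, against 6, 1 and 2 counts with DMSO. The groups overlapped, and no difference was detectable at this depth. Tbx3 and Tbx5 were thus measured at unequal precision.

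A gene is called where edgeR's quasi-likelihood test gave a Benjamini-Hochberg adjusted p under 0.05 over all tested genes. The 3 tested members were called, all higher with dTAG-13, while 9.46% of all 14544 tested genes were called higher and 15.2% were called in either direction. The libraries of the 2 treatments did not overlap, higher with dTAG-13, in 16.4% of tested genes. The members were selected with this contrast known, so nothing is read from their count. The fit called 2209 genes, and with the replicate number as a block 3993 genes. With that block the members' log2 fold changes were 2.83 for Tbx2, 1.75 for Tbx4 and 0.90 for Tbx3.

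**Figure D1:**
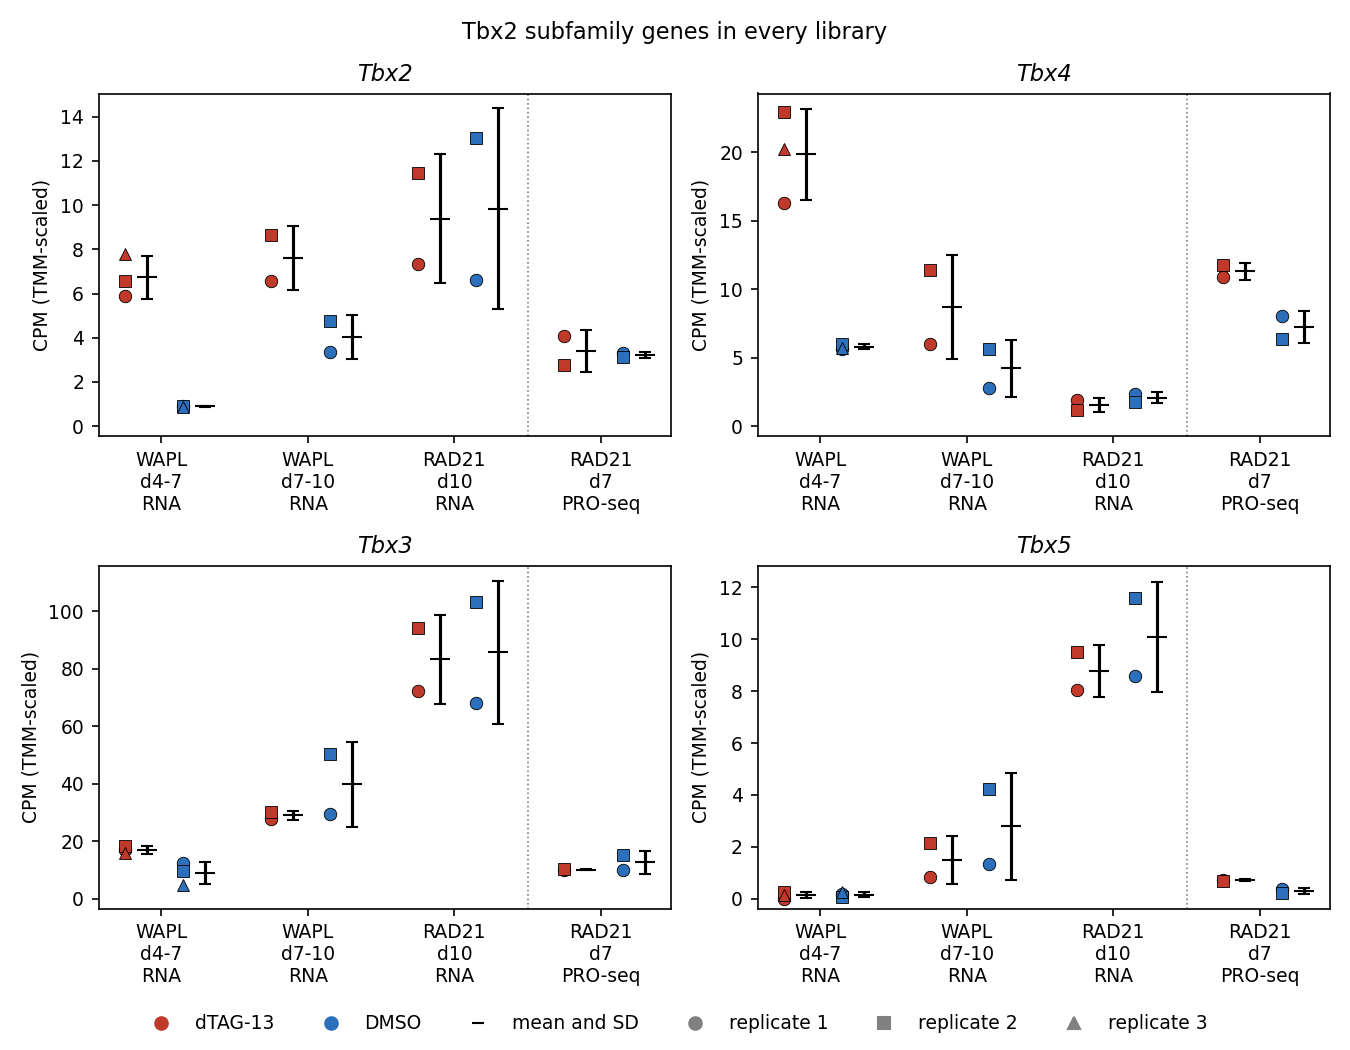
CPM of Tbx2, Tbx4, Tbx3 and Tbx5 in each library (linear axis from 0), with dTAG-13 left of DMSO in each of 4 comparisons, a symbol for each replicate, and bars for the mean and SD. Tbx2 on days 4 to 7 sits between 5.87 and 7.78 CPM with dTAG-13, above the DMSO libraries at 0.872 to 0.917 CPM, while its RAD21 RNA libraries overlap.

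Markers of other cell types were summed in the same libraries, where 9.46% of all tested genes were called higher and 15.2% in either direction. The summed level of 12 fibroblast and feeder markers was 121 to 159 CPM with dTAG-13, against 90.9 to 94.1 CPM with DMSO, and 6 of its 11 tested genes rose and 1 fell in the test. The sum of 8 trophoblast markers was 1056 to 1364 CPM with dTAG-13, against 365 to 602 CPM with DMSO. Of 7 tested genes 3 were higher. In clone H7, with both windows scaled together, Krt8 averaged 432 ± 89.5 CPM with dTAG-13 and 208 ± 15.4 CPM with DMSO (SD, n = 2 each). Krt18 averaged 727 ± 138 CPM and 308 ± 50.7 CPM, so these 2 keratins made up most of the sum. Tfap2c was lower with dTAG-13, at 19.9 CPM against 24.4 CPM. Cardiac muscle markers summed to 80.9 to 151 CPM with dTAG-13, against 38.1 to 85.6 CPM with DMSO. These sums overlapped, though each couple was higher with dTAG-13. Of 10 tested genes 4 were higher and 1 lower. Under the same joint scaling of clone H7, Actc1 weighed most, at 78.9 CPM with dTAG-13 and 39.2 CPM with DMSO. Ryr2 was lower with dTAG-13, at 6.42 CPM against 14.5 CPM. Extraembryonic endoderm markers summed to 88.0 to 114 CPM with dTAG-13, against 62.0 to 68.9 CPM with DMSO, with 3 of 6 tested genes higher. Neural markers went the other way, at 207 to 260 CPM with dTAG-13, against 327 to 395 CPM with DMSO, with 1 of 5 tested genes lower. Pluripotency markers summed to 1548 to 2184 CPM with dTAG-13, against 2043 to 2307 CPM with DMSO, with overlap and with 1 of 10 lower. No marker in the table was at 0 in all 6 libraries. Their part in the result was not tested.

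WAPL loss on days 7 to 10 gave no called gene in edgeR, so 0% of 14110 tested genes passed. At an unadjusted p under 0.05 there were 926 genes, and DESeq2 called 40. The count depended on the design. When edgeR was given a further term for replicate number, 5141 genes were called, all 4 members among them. Same-numbered libraries of this window share just a number, so that term may not be warranted. The lack of calls without it is not read as a lack of effect. Tbx2 and Tbx4 were again higher in both dTAG-13 libraries, whereas Tbx3 and Tbx5 were lower in both couples with groups that overlapped.

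Tbx2 stood at 6.58 and 8.64 CPM with dTAG-13, against 3.34 and 4.75 CPM with DMSO. The groups did not overlap, at a log2 fold change of 0.92 (SE 0.30, edgeR adjusted p = 0.701). Tbx4 stood at 6.01 and 11.4 CPM with dTAG-13, against 2.76 and 5.66 CPM with DMSO. The groups did not overlap, at a log2 fold change of 1.06 (SE 0.48, edgeR adjusted p = 0.793). A lack of overlap with higher dTAG-13 libraries was seen in 17.3% of all tested genes. Replicate 2 was the higher library in both treatments for both genes.

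Tbx3 stood at 27.9 and 30.2 CPM with dTAG-13, against 29.4 and 50.3 CPM with DMSO, a log2 fold change of -0.45 (SE 0.29, edgeR adjusted p = 0.883). Tbx5, now detected in every library, stood at 0.823 and 2.13 CPM with dTAG-13, against 1.33 and 4.25 CPM with DMSO, a log2 fold change of -0.83 (SE 0.71, edgeR adjusted p = 0.926). In both genes the high DMSO library was replicate 2, and the groups overlapped. The 95% intervals were -1.21 to 0.31 for Tbx3 and -2.65 to 0.99 for Tbx5.

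In the DMSO libraries of clone H7, 3 of the 4 genes were at higher levels on day 10 than on day 7 and Tbx4 was at a lower level, without overlap between the days when both windows were scaled together. With each table's own scaling the Tbx4 libraries overlapped, at 2.76 and 5.66 CPM on day 10, against 5.64 and 6.03 CPM on day 7. Each day also has its own table, so day and table cannot be told apart. A lack of overlap in either direction was seen in 47.2% of 14324 tested genes, and 2.5% of them were called, 2.14% as higher on day 10.

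Tbx2 stood at 3.30 and 4.70 CPM on day 10, against 0.934 and 0.911 CPM on day 7. Its log2 fold change of 2.11 (SE 0.28) passed the test (edgeR adjusted p = 0.0180). Tbx3 rose as well, with 28.9 and 49.8 CPM on day 10, against 12.7 and 9.98 CPM on day 7, and a log2 fold change of 1.79 (SE 0.27, edgeR adjusted p = 0.0243). Tbx2 and Tbx3 are the repressor members of the 2 pairs. The call of each was lost without either day 7 DMSO library or without DMSO replicate 2 of day 10, where the log2 fold changes were 1.83 to 2.12 for Tbx2 and 1.34 to 1.98 for Tbx3. That of Tbx3 was also lost without either day 7 dTAG-13 library (1.78 and 1.79).

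Tbx5 stood at 1.31 and 4.20 CPM on day 10, against 0.170 and 0.0480 CPM on day 7, where the counts were only 6 and 1. Its log2 fold change of 4.44 (SE 0.95) did not pass the test in edgeR (adjusted p = 0.0619) and did in DESeq2 (4.56, adjusted p = 4.62e-04). It also passed in edgeR without DMSO replicate 1 of day 10 (5.04, adjusted p = 0.0352). Tbx4 stood at 2.72 and 5.60 CPM on day 10, against 5.75 and 6.14 CPM on day 7, a log2 fold change of -0.51 (SE 0.42, edgeR adjusted p = 0.612).

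In the dTAG-13 libraries of clone H7, Tbx2 stood at 6.54 and 8.66 CPM on day 10, against 6.00 and 6.65 CPM on day 7. Tbx4 stood at 5.96 and 11.4 CPM on day 10, against 16.7 and 23.3 CPM on day 7. Thus the Tbx2 libraries of the 2 days overlapped under dTAG-13, while those of Tbx4 did not and were lower on day 10. Tbx3 stood at 27.7 and 30.3 CPM on day 10, against 17.2 and 18.8 CPM on day 7, and Tbx5 at 0.817 and 2.14 CPM on day 10, against 0 and 0.248 CPM on day 7. These differences under dTAG-13 were not tested.

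**Figure D2:**
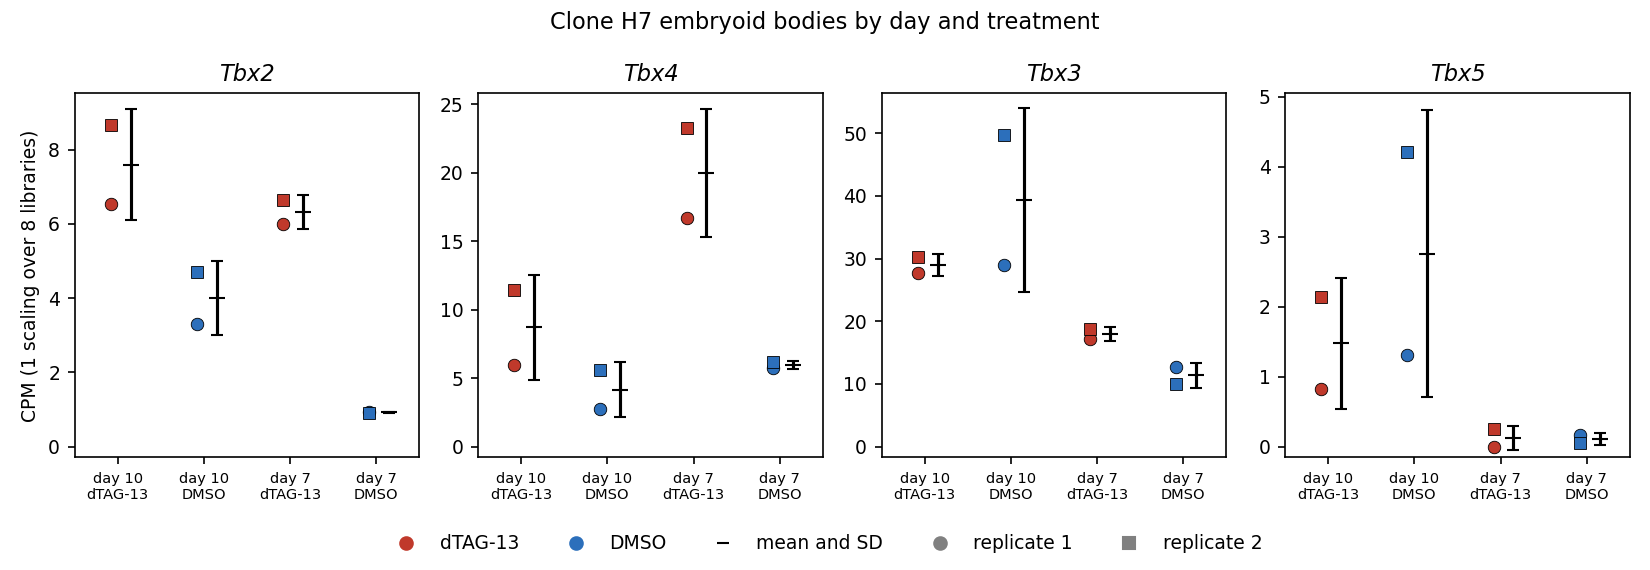
CPM of the 4 genes in clone H7 after joint scaling (linear axes from 0), with day 10 left of day 7 and, within each day, dTAG-13 left of DMSO. Symbols are replicates and bars are the mean and SD. The Tbx2 dTAG-13 libraries of both days lie at 6.00 to 8.66 CPM, above the DMSO libraries at 3.30 and 4.70 CPM on day 10 and 0.934 and 0.911 CPM on day 7.

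The response to WAPL loss in clone H7 was then compared between windows, as the log2 fold change on days 7 to 10 minus that on days 4 to 7. This difference was -1.84 for Tbx2 (SE 0.37), -0.67 for Tbx4 (SE 0.57), -1.10 for Tbx3 (SE 0.37) and -1.22 for Tbx5 (SE 1.60). None passed the test (edgeR adjusted p = 1.00 for each). The value for Tbx2 contains the day 4 to 7 response known when the genes were chosen. edgeR called 0% of 14324 genes for this difference, with 209 genes at an unadjusted p under 0.05 and 1 called by DESeq2.

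RAD21 loss for 8 h on day 10 left the RNA of all 4 members overlapping between treatments, while 18.7% of 14470 tested genes were called and the libraries of 30.9% did not overlap. Tbx2 stood at 7.34 and 11.4 CPM with dTAG-13, against 6.63 and 13.04 CPM with DMSO, in clones C4 and G9. The log2 fold change was -0.03 (95% interval -0.30 to 0.23, edgeR adjusted p = 0.898), and clone G9 was the higher clone in both treatments. Tbx3 stood at 72.3 and 94.2 CPM with dTAG-13, against 68.2 and 103 CPM with DMSO, a log2 fold change of -0.02 (95% interval -0.14 to 0.09, edgeR adjusted p = 0.827). With 1 residual degree of freedom, the intervals of this comparison rest mainly on the spread of other genes. Fits without 1 library, which dropped the clone term, gave -0.49 to 0.49 for Tbx2 and -0.31 to 0.29 for Tbx3.

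For the activator members the estimates were below 0, as they were for Tbx2 and Tbx3, and the intervals of all 4 genes include 0. Tbx4 stood at 1.93 and 1.20 CPM with dTAG-13, against 2.35 and 1.79 CPM with DMSO, on 51 and 16 counts against 56 and 62 counts. Its log2 fold change was -0.39 (95% interval -0.94 to 0.16, edgeR adjusted p = 0.376). Tbx5 stood at 8.06 and 9.50 CPM with dTAG-13, against 8.60 and 11.6 CPM with DMSO, a log2 fold change of -0.19 (95% interval -0.45 to 0.07, edgeR adjusted p = 0.366). Of the 4 genes, Tbx3 had the narrowest interval and Tbx4 the widest, but these widths depend on the fit. For Tbx3, DESeq2 gave an SE of 0.12, against 0.06 in edgeR.

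In nascent RNA after 8 h of RAD21 loss on day 7, Tbx4 rose and the other members did not pass the test. Across all genes 10.6% of 16496 were called, 5.9% as higher with dTAG-13, and 30.4% did not overlap in either direction. Tbx4 stood at 10.9 and 11.7 CPM with dTAG-13, against 8.06 and 6.38 CPM with DMSO, on 252.5 and 171 expected counts against 282.5 and 90. The groups did not overlap, and the log2 fold change was 0.62 (SE 0.18, edgeR adjusted p = 0.0254). The call was lost with DESeq2 (0.65, adjusted p = 0.346), without the clone term (0.64) and without any 1 library, where the clone term was dropped as well (0.49 to 0.82). Both RAD21 comparisons have 1 residual degree of freedom and lean on the clone term, without which edgeR called 1 gene in RNA and 0 in PRO-seq, with 492 in PRO-seq at an unadjusted p under 0.05.

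Tbx2, the other gene of that locus, stood at 4.09 and 2.75 CPM with dTAG-13, against 3.32 and 3.12 CPM with DMSO. Its groups overlapped, at a log2 fold change of 0.11 (SE 0.28, edgeR adjusted p = 0.869). Tbx3 stood at 9.90 and 10.3 CPM with dTAG-13, against 9.89 and 15.3 CPM with DMSO, a log2 fold change of -0.27 (SE 0.17, edgeR adjusted p = 0.381). Tbx5 stood at 0.732 and 0.687 CPM with dTAG-13, against 0.372 and 0.213 CPM with DMSO, a log2 fold change of 1.19 (SE 0.63, edgeR adjusted p = 0.255). The Tbx5 groups did not overlap, but they rest on 17 and 10 counts with dTAG-13, against 13 and 3 with DMSO. Cardiac muscle markers summed to 50.0 to 64.6 CPM in the dTAG-13 PRO-seq libraries, against 118.5 CPM in both DMSO libraries, with 1 of 7 tested genes lower and none higher, and pluripotency markers to 265 to 454 CPM, against 368 to 583 CPM, with 6 of 10 lower. Their part in the result was not tested.

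**Figure D3:**
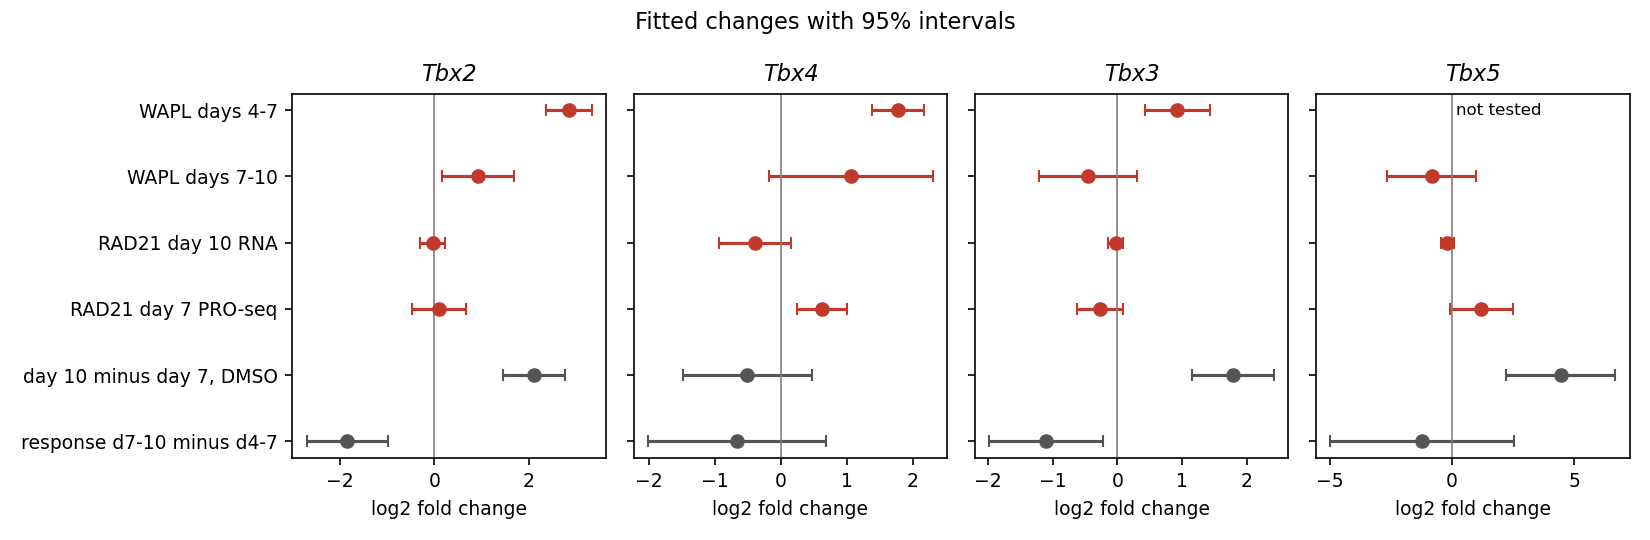
Log2 fold change of each member with its 95% interval, with dTAG-13 over DMSO in the upper 4 lines (red), and below them (grey) day 10 minus day 7 in DMSO and the response on days 7 to 10 minus that on days 4 to 7, both in clone H7. Axes differ between panels and 0 is no difference. Tbx2 on days 4 to 7 is at 2.85, and Tbx5 on days 4 to 7 was not tested.

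The order of the RNA levels over the 6 groups differed between the members, and the 3 RNA tables were scaled separately. Tbx2 was highest in the RAD21 day 10 groups, at 9.39 ± 2.90 CPM with dTAG-13 and 9.84 ± 4.54 CPM with DMSO (SD, n = 2 each). Next came the WAPL dTAG-13 groups, at 7.61 ± 1.46 CPM on days 7 to 10 (SD, n = 2) and 6.73 ± 0.965 CPM on days 4 to 7 (SD, n = 3). These 4 groups overlapped with their neighbours in the order. The WAPL DMSO groups lay below them without overlap, at 4.05 ± 0.995 CPM on days 7 to 10 (SD, n = 2) and 0.895 ± 0.0227 CPM on days 4 to 7 (SD, n = 3).

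Tbx4 had a different order, with WAPL days 4 to 7 under dTAG-13 alone at the top, at 19.8 ± 3.33 CPM (SD, n = 3). Below it without overlap came WAPL days 7 to 10 with dTAG-13 at 8.71 ± 3.81 CPM (SD, n = 2), then days 4 to 7 with DMSO at 5.80 ± 0.202 CPM (SD, n = 3) and days 7 to 10 with DMSO at 4.21 ± 2.05 CPM (SD, n = 2), which overlapped in turn. The RAD21 day 10 groups were lowest, at 1.56 ± 0.519 CPM with dTAG-13 and 2.07 ± 0.393 CPM with DMSO (SD, n = 2 each).

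Tbx3 and Tbx5 were both highest in the RAD21 day 10 groups and both lowest in the WAPL days 4 to 7 groups. Tbx3 averaged 83.3 ± 15.5 CPM with dTAG-13 and 85.7 ± 24.8 CPM with DMSO in RAD21 cells (SD, n = 2 each). It averaged 29.0 ± 1.62 CPM with dTAG-13 and 39.8 ± 14.8 CPM with DMSO on WAPL days 7 to 10 (SD, n = 2 each). On WAPL days 4 to 7 it averaged 17.0 ± 1.37 CPM with dTAG-13 and 9.06 ± 3.88 CPM with DMSO (SD, n = 3 each). Those last groups were separated from each other, while the treatments overlapped in the other pairs of groups.

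Tbx5 averaged 8.78 ± 1.01 CPM with dTAG-13 and 10.1 ± 2.12 CPM with DMSO in RAD21 cells (SD, n = 2 each). It averaged 1.48 ± 0.926 CPM with dTAG-13 and 2.79 ± 2.06 CPM with DMSO on WAPL days 7 to 10 (SD, n = 2 each), and 0.133 ± 0.123 CPM with dTAG-13 and 0.154 ± 0.102 CPM with DMSO on days 4 to 7 (SD, n = 3 each). The treatments overlapped at each of these steps, and the steps did not overlap with one another.

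Within the Tbx2 and Tbx4 locus the balance of the 2 genes was followed as the log2 ratio of their CPM in the same library, with a prior count of 2, compared only between libraries because gene lengths were not used. On days 4 to 7 the log2 ratio of Tbx2 to Tbx4 averaged -1.54 ± 0.22 with dTAG-13 and -2.57 ± 0.06 with DMSO (SD, n = 3 each), without overlap. On days 7 to 10 it averaged -0.13 ± 0.37 with dTAG-13 and 0.01 ± 0.36 with DMSO (SD, n = 2 each), with overlap. The share of Tbx2 was thus greater with dTAG-13 in the first window, where both genes were higher. After RAD21 loss the RNA ratio averaged 2.53 ± 0.91 with dTAG-13 and 2.14 ± 0.95 with DMSO (SD, n = 2 each), with overlap. Within clones it was 1.88 with dTAG-13 and 1.47 with DMSO in C4, and 3.17 with dTAG-13 and 2.81 with DMSO in G9, higher with dTAG-13 in both. In PRO-seq it ranged from -2.06 to -1.39 with dTAG-13, against -1.26 to -1.01 with DMSO, without overlap. These ratios use the members' own values and were not tested.

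Within the Tbx3 and Tbx5 locus the log2 ratio of Tbx3 to Tbx5 rested on few Tbx5 counts on days 4 to 7. It averaged 6.38 ± 0.90 with dTAG-13 and 5.14 ± 1.18 with DMSO (SD, n = 3 each), with overlap. On days 7 to 10 it averaged 4.34 ± 0.82 with dTAG-13 and 3.95 ± 0.59 with DMSO (SD, n = 2 each), with overlap. In RAD21 RNA, where Tbx5 had 127 to 401 counts per library, it was 3.15 and 3.30 with dTAG-13, against 2.98 and 3.15 with DMSO, and was higher with dTAG-13 in both clones. In PRO-seq it averaged 3.67 ± 0.09 with dTAG-13 and 5.04 ± 0.86 with DMSO (SD, n = 2 each), on as few as 3 Tbx5 counts.

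**Figure D4:**
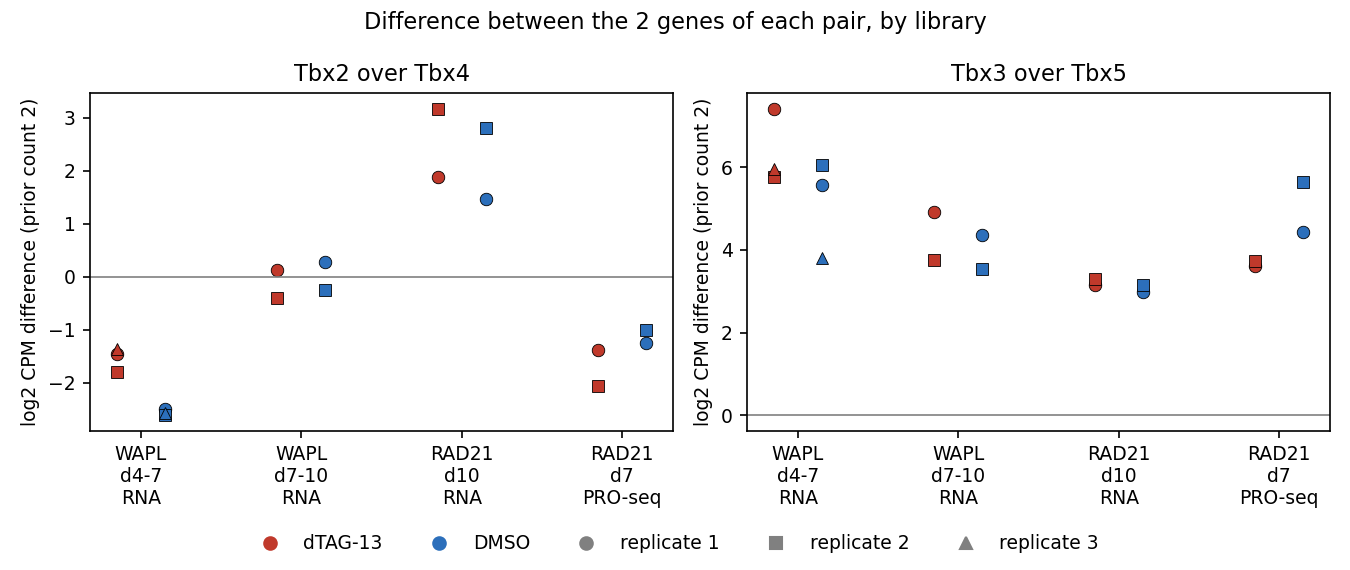
Difference in log2 CPM (prior count 2) of Tbx2 over Tbx4 and of Tbx3 over Tbx5 in each library, with dTAG-13 left of DMSO in each comparison and a symbol for each replicate. The Tbx2 over Tbx4 values on days 4 to 7 average -1.54 with dTAG-13 and -2.57 with DMSO and do not overlap.

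Over the 10 WAPL libraries, which share clone H7 in 8 of them and come from 2 tables, the members' log2 levels had Pearson correlations, given as a description, of 0.54 for Tbx2 with Tbx4 and 0.73 for Tbx3 with Tbx5. Across the pairs the values were 0.70 for Tbx2 with Tbx3, 0.34 for Tbx2 with Tbx5, -0.06 for Tbx4 with Tbx3 and -0.41 for Tbx4 with Tbx5. Among 12890 genes compared, the pattern most like that of Tbx2 was that of Col22a1 (0.98), followed by Slc52a3 (0.98) and Rusc2 (0.97). For Tbx4 they were Tmprss13 (0.98), Cacna1b (0.97) and Onecut2 (0.97). For Tbx3 they were S1pr1, Igf2 and Foxl2 (0.96 each), and for Tbx5 they were Tiam2 (0.97), Fam110b (0.97) and Fkbp14 (0.96). In the libraries of days 4 to 7 Tbx5 had only 0 to 7 counts, so all its correlations rest partly on values near the limit of detection.

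The genes around each locus were taken within 1 Mb of the pair in RefSeq order on GRCm38.p6, on chromosomes 11 and 5. Around Tbx2 and Tbx4, 22 other genes were tested on days 4 to 7, with log2 fold changes of -0.24 to 0.72 and a median of 0.17, against a median of -0.01 over all tested genes. Of these, 2 rose, namely Tubd1 (0.72, edgeR adjusted p = 0.0280) and Vmp1 (0.49, edgeR adjusted p = 0.0241), the autophagy gene. None fell. The nearest tested genes on each side did not pass the test, with log2 fold changes of 0.23 for Bcas3 before Tbx2 and 0.10 for Brip1, 0.08 for Brip1os, -0.10 for Ints2 and 0.22 for Med13 after Tbx4. Some listed genes nearer to the pair, such as Bcas3os1 and Gm20759, were not tested in this comparison. The highest neighbour value, 0.72, lay below the 2.85 of Tbx2 and the 1.78 of Tbx4. The members were chosen with this contrast known, so nothing is read from that order.

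Around Tbx3 and Tbx5, 15 other genes were tested on days 4 to 7, with log2 fold changes of -0.74 to 1.63 and a median of 0.01. Of these, 1 fell, Dtx1, a regulator of Notch signalling (-0.65, edgeR adjusted p = 0.0305), and none rose. Of all tested genes 15.2% were called in that comparison. Med13l before Tbx3 had a log2 fold change of 0.12 and Rbm19 after Tbx5 one of -0.20. Med13 and Med13l, which flank the pairs, are paralogs of the Mediator kinase module. On days 7 to 10, 23 neighbours of Tbx2 and Tbx4 and 14 of Tbx3 and Tbx5 were tested. The edgeR fit called none of them, but it called 0% of all 14110 tested genes, so nothing is read from this.

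After RAD21 loss on day 10, 22 neighbours of Tbx2 and Tbx4 were tested in RNA and 2 fell, Pigw (-0.47, edgeR adjusted p = 0.0185) and Dhx40 (-0.16, edgeR adjusted p = 0.0462). Over all tested genes 18.7% were called in RNA and 10.6% in PRO-seq. These calls lean on the clone term, without which edgeR called 1 gene in RNA and 0 in PRO-seq. In PRO-seq, 24 were tested and 2 fell, Pigw (-0.39, edgeR adjusted p = 0.0174) and Car4, a carbonic anhydrase. Car4 averaged 13.3 ± 0.605 CPM with dTAG-13 and 25.2 ± 1.34 CPM with DMSO (SD, n = 2 each), a log2 fold change of -0.91 (edgeR adjusted p = 2.00e-05). Around Tbx3 and Tbx5, 1 of 16 tested genes rose in RNA, AW549542 (0.67, edgeR adjusted p = 0.0414). In PRO-seq 1 of 19 rose, Tbx3os2, which in RefSeq order stands between Tbx3 and Tbx5 and may overlap either. It averaged 0.898 CPM with dTAG-13 and 0.213 CPM with DMSO, on 4 to 21 counts, a log2 fold change of 2.21 (SE 0.66, edgeR adjusted p = 0.0286). Whether the counting used strand is not given in the sources used here, so reads of this antisense gene and of an overlapping partner cannot be told apart.

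**Figure D5:**
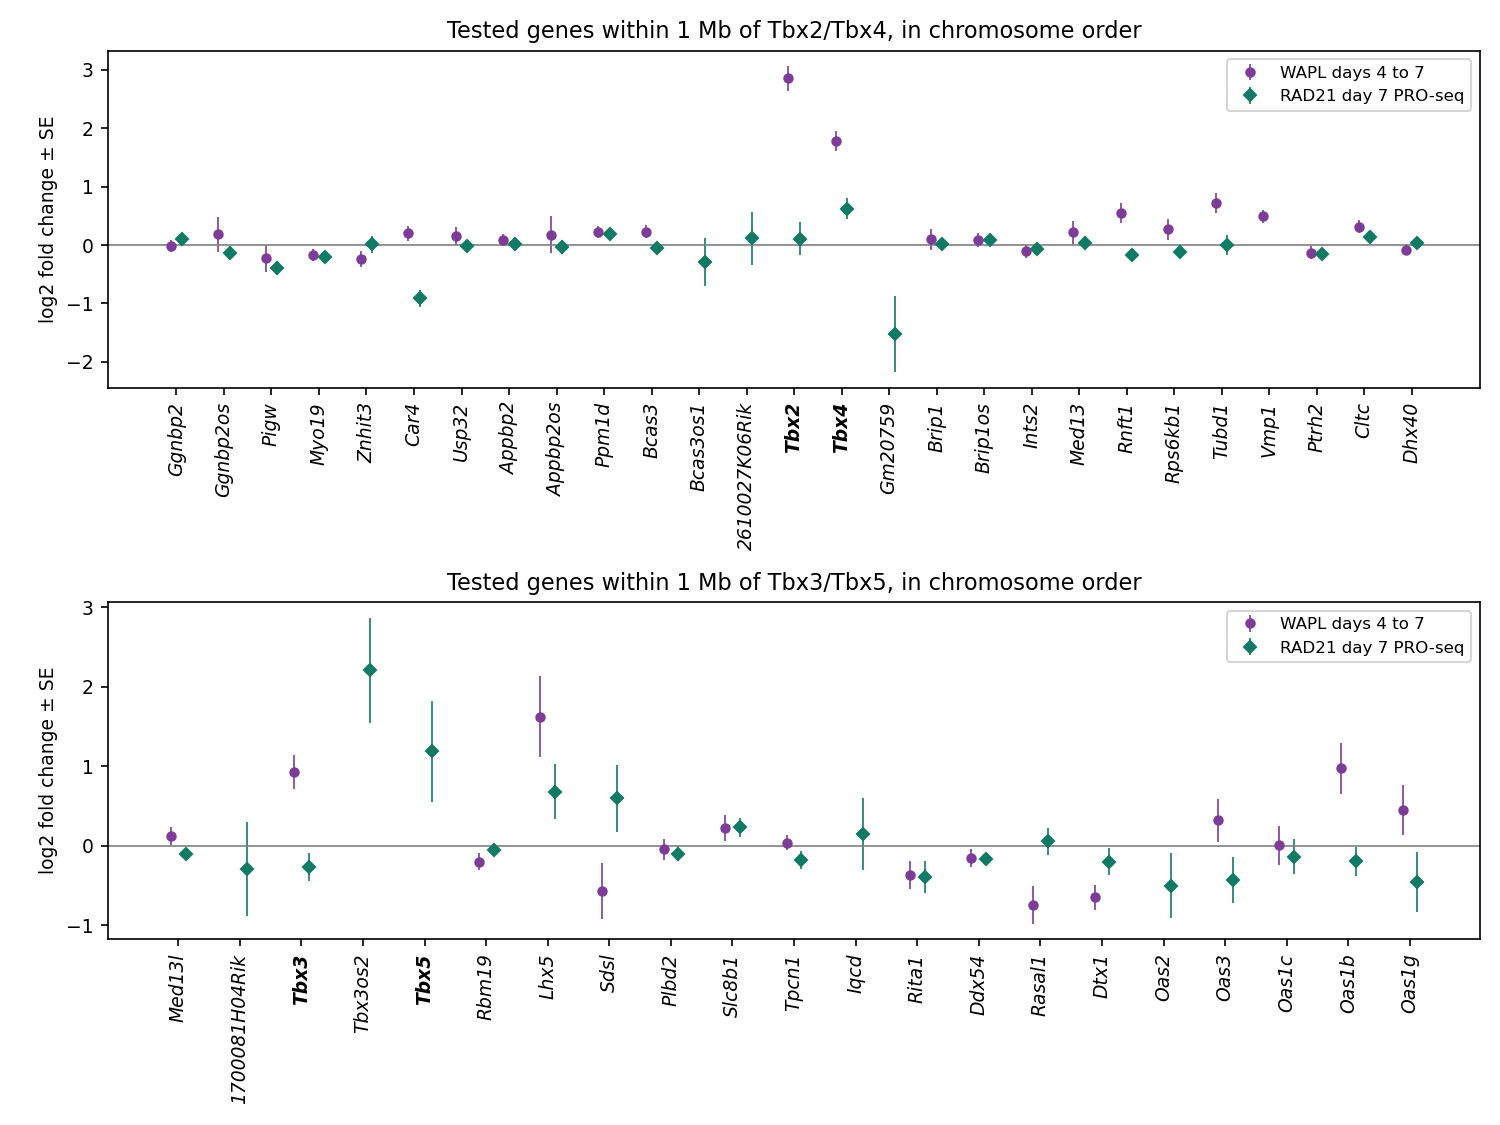
Log2 fold change ± SE, dTAG-13 over DMSO, of the tested genes within 1 Mb of each pair in RefSeq order, on WAPL days 4 to 7 (circles) and in RAD21 day 7 PRO-seq (diamonds), with the members in bold. On WAPL days 4 to 7, Tbx2 at 2.85 and Tbx4 at 1.78 stand above their 22 tested neighbours, which lie between -0.24 and 0.72. The members were chosen with this contrast known.

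Of 17 upstream signals and partners of these factors, 11 were tested on WAPL days 4 to 7, with a median log2 fold change of 0.37 against -0.01 over all tested genes, and 4 rose and 2 fell, where 15.2% of all tested genes were called. Bmp4, a BMP ligand that induces Tbx2 and Tbx3 in embryos, averaged 26.6 ± 2.44 CPM with dTAG-13 and 10.1 ± 2.16 CPM with DMSO (SD, n = 3 each), a log2 fold change of 1.40 (edgeR adjusted p = 0.00196). The others that rose were Bmp7 (0.78), Hand1 (1.28) and the cardiac partner Nkx2-5 (1.01). Fgf8, a growth factor of the early mesoderm and limb, fell by 1.36 on the log2 scale and Sall4 by 0.40. No gene of the list was called on days 7 to 10, of 15 tested, but 0% of all tested genes were called there. Bmp4 had a log2 fold change of 0.60 in that window (edgeR adjusted p = 0.701).

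Of 12 reported targets, 9 were tested on days 4 to 7 and 3 rose, with a median log2 fold change of 0.12, where 9.46% of all tested genes were called higher. Cdkn2a, the senescence gene that Tbx2 and Tbx3 are known to repress, averaged 33.7 ± 3.18 CPM with dTAG-13 and 16.9 ± 4.08 CPM with DMSO (SD, n = 3 each), a log2 fold change of 1.00 (edgeR adjusted p = 0.00499). Cdkn1a, another cell cycle inhibitor of that kind, had a log2 fold change of 0.74, and Nppb, a natriuretic peptide of heart muscle, 1.18. Of 13 other T-box genes, 8 were tested, T (Brachyury) rose by 0.41 on the log2 scale and Eomes fell. Eomes averaged 57.5 ± 15.6 CPM with dTAG-13 and 160 ± 39.1 CPM with DMSO (SD, n = 3 each), a log2 fold change of -1.48 (edgeR adjusted p = 7.38e-04). On days 7 to 10 no gene of the target list, of 9 tested, or of the other T-box genes, of 6 tested, was called. There 0% of all tested genes were called.

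In the DMSO libraries of clone H7, 9 of 15 tested upstream genes were higher on day 10 than on day 7 and none was lower, at a median log2 fold change of 2.05 against 0.00 over all genes, of which 2.14% were called higher. Bmp2, a BMP ligand that can induce Tbx2, averaged 24.6 ± 5.81 CPM on day 10 and 1.76 ± 0.114 CPM on day 7 (SD, n = 2 each), a log2 fold change of 3.796 (edgeR adjusted p = 0.00317). Bmp4 had a log2 fold change of 2.14, Gata6 of 3.73, Hand1 of 1.70, Hand2 of 4.18, Isl1 of 3.51, Wnt2b of 1.97 and Gata4 of 1.77. Shh, the ninth, stood at 2.83 and 3.25 CPM on day 10, against 1 and 0 counts on day 7. Of the targets, 1 of 9 rose, Fgf10, a limb and lung growth factor downstream of Tbx4 and Tbx5, at 19.4 ± 12.6 CPM on day 10 and 1.85 ± 0.0955 CPM on day 7 (SD, n = 2 each). No other T-box gene was called, of 7 tested. Trophoblast markers rose in 5 of 7, cardiac markers in 3 of 10, extraembryonic endoderm markers in 3 of 6 and fibroblast markers in 2 of 11 on day 10, and their part in the result was not tested.

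After 8 h of RAD21 loss on day 10, while the members did not pass the test, 6 of 15 tested upstream genes fell and 2 rose, where 18.7% of all tested genes were called. All calls of this comparison lean on the design, with 2708 genes called in edgeR, 1 without the clone term and 476 in DESeq2. Bmp2 averaged 18.3 ± 1.01 CPM with dTAG-13 and 45.5 ± 1.92 CPM with DMSO (SD, n = 2 each), a log2 fold change of -1.30 (edgeR adjusted p = 1.90e-58). Bmp4 fell by 0.92, Hand1 by 0.91, Shh by 1.74, Isl1 by 0.68 and Fgf8 by 0.25 on the log2 scale, whereas Bmp7 rose by 0.48 and Wnt2b by 0.36. Of 10 tested targets, 6 rose and 1 fell, with Nppb (1.28) and Nppa (1.01), both natriuretic peptides, among those that rose. Of 7 tested other T-box genes, T fell by 0.40, Eomes by 0.19 and Tbx20 by 0.46. Pluripotency markers fell in 9 of 10, with sums of 757 to 1127 CPM with dTAG-13, against 996 to 1436 CPM with DMSO. Fibroblast markers summed to 269 to 289 CPM with dTAG-13, against 272 to 277 CPM with DMSO, with 1 of 11 tested genes higher and 3 lower. Cardiac markers rose in 3 of 10 and fell in 1, and trophoblast markers rose in 2 of 7 and fell in 2. The cardiac and trophoblast sums were higher with dTAG-13 in both clones. Extraembryonic endoderm markers rose in 1 of 8 and fell in 1, and neural markers fell in 1 of 5. The part of these markers in the result was not tested.

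In PRO-seq on day 7, Bmp7 rose (0.62) and Fgf8, Gata6 and Sall4 fell, by 1.05, 0.66 and 0.39 on the log2 scale, among 14 tested upstream genes, where 10.6% of all tested genes were called. Bmp4 had a log2 fold change of -0.16 (edgeR adjusted p = 0.752) and Bmp2 of -0.20 (edgeR adjusted p = 0.769). Of 11 tested targets, Cdkn1a rose by 0.21 and Ndrg1 fell by 0.47 on the log2 scale. Of 10 tested other T-box genes, Tbx15 rose by 0.56, and T fell by 1.81 and Eomes by 0.85. The RNA and PRO-seq values come from different days and are set side by side only.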

How the data were processed

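Gene counts from 14 RNA-seq and 4 PRO-seq libraries were analysed, of 94 samples, and other assays were not used here. The RNA tables hold raw counts deposited by the authors, while the values for PRO-seq are expected counts as the authors deposited them, in steps of 0.5, and were rounded for the tests. Per the submitters' processing notes the builds mm9, hg19 and dm6 and, among others, the tools Bowtie2, TopHat2, HOMER and Novoalign were used. Their roles, how genes were counted and whether strand was used were not given in the sources used here. The earlier WAPL window has 24421 genes listed, the later one 14997, RAD21 RNA 15363 and PRO-seq 22529.

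The test was the quasi-likelihood F-test of edgeR 4.0.16 (R 4.3.3) after TMM scaling and filterByExpr at min.count 10, with Benjamini-Hochberg adjustment and a threshold of 0.05, and DESeq2 1.42.0 was an alternative. A clone term entered the fits of WAPL days 4 to 7 and of both RAD21 comparisons. The day contrast and the window difference used 1 fit over 8 clone H7 libraries. SE is the log2 fold change divided by the square root of F. Groups of CPM values are summarised by mean and SD. matplotlib 3.10.9 drew the figures. The fits were tested on simulated data with known changes.

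On WAPL days 4 to 7 the replicate numbers pair the samples: libraries with the same number deviated together from the means of their groups, with correlations of 0.52, 0.54 and 0.64, and the third pair is clone H2. Replicates differed well beyond sampling noise, with a chi-square of 13.2 to 54.9 per gene, so none was counted as a duplicate.

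The members and lists were chosen with earlier results of these data known. Genes named are the members, their neighbours within 1 Mb, any gene of 3 lists (other T-box genes, reported targets, upstream signals and partners) and, per member, the 3 genes most correlated over the WAPL libraries. A few marker genes that weighed most in a marker sum, or went against it, are named as well. The result of 1 gene of the target list is not reported here. The tables hold no usable positions, so neighbours came from RefSeq order on GRCm38.p6, another build. Alternatives were RLE scaling, no low-count filter, DESeq2, the replicate block, the clone term left out, clone H7 alone, the DMSO libraries alone and each library left out.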

Additional observations from a re-analysis of the deposited data

Results flagged for a closer look

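The Tbx3 response to WAPL loss had opposite signs in the 2 windows. Every dTAG-13 library was above its DMSO partner on days 4 to 7, with log2 changes of 0.42, 0.95 and 1.76, and every one was below it on days 7 to 10, with log2 changes of -0.09 and -0.68. In clone H7 the difference, days 7 to 10 minus days 4 to 7, was -1.10 (SE 0.37). It did not pass the test over all genes (edgeR adjusted p = 1.00, and adjusted p = 0.208 with the replicate block), and the couple nearest to 0 on days 7 to 10 had a change of only -0.09.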

How the results depend on the processing

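Counts of called genes under RLE scaling and with no low-count filter stayed within 1.5 times for every comparison. On WAPL days 4 to 7 edgeR called 2209 genes, 3993 with the replicate block, 994 without the clone term, 360 in clone H7 alone and 341 to 4432 without 1 library. On days 7 to 10 it called 0, DESeq2 40, the replicate block 5141 and fits without 1 library 27 to 143. With that block all 4 members passed (log2 fold changes 0.91 for Tbx2, 1.05 for Tbx4, -0.47 for Tbx3 and -0.93 for Tbx5, edgeR adjusted p = 9.01e-05, 5.94e-06, 1.11e-04 and 0.00704). Same-numbered libraries there correlated at 0.79, but with only 2 pairs in 1 clone they share just a number. Tbx4 also passed without DMSO replicate 2 (1.68, adjusted p = 0.0496 in edgeR). RAD21 RNA gave 2708 calls, 476 with DESeq2, 1 with no replicate block (clone term left out) and 16 to 94 without 1 library. PRO-seq gave 1743, 504 with DESeq2, 0 with no replicate block and 0 without any 1 library (262 to 795 at an unadjusted p under 0.05 in edgeR). Clone pairs correlated at 0.68 in RNA and 0.72 in PRO-seq, and fits without 1 library dropped the clone term. The day contrast gave 358 calls, 986 with DESeq2, 197 from the 4 DMSO libraries alone and 0 to 363 without 1 library. The window difference gave 0, 1 with DESeq2 and 1 with the replicate block, where Tbx2 had an adjusted p of 0.0730 in edgeR. The cause of these shifts was not tested.

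The replicate block changed no member call on days 4 to 7. Some members changed sign, none of them past the test, when 1 library was left out. Those ranges were -1.76 to 0.24 for Tbx5 on days 7 to 10, -0.49 to 0.49 for Tbx2, -0.31 to 0.29 for Tbx3 and -0.41 to 0.025 for Tbx5 in RAD21 RNA, -0.23 to 0.34 for Tbx2 and -0.60 to 0.033 for Tbx3 in PRO-seq, and -2.45 to 3.62 for Tbx5 in the window difference. Tbx2 and Tbx4 on days 4 to 7 kept direction and call in all 6 fits without 1 library, at 2.77 to 2.92 and 1.61 to 1.92. Depth limits Tbx5 most, with at most 7 counts in any day 7 RNA library.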
